A study of Mus musculus with 28 samples.

Results

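Oncostatin M and the interleukin-6 (IL-6) family were followed through 10 genes in the left ventricle of neonatal mice after myocardial infarction (MI). The genes were picked out by symbol, with earlier results of these data known. They comprise 4 ligands (Osm, Lif, Il6 and Il11), 4 receptor chains (Osmr, Lifr, Il6ra and Il6st), the transcription factor Stat3 and its inhibitor Socs3. They are 10 of the 45318 gene rows in the files, and all 10 passed the filter on low counts at each follow-up. The animals were male Hsd:ICR(CD-1) mice, an outbred strain, that underwent ligation of the left anterior descending coronary artery (MI) or a sham operation on postnatal day 7 or day 1. RNA came from the wall of the left ventricle in the remote zone, distant from the infarct, 3 or 21 days later, with 1 library per animal. The groups are 7d-MI + 3, 7d-SHAM + 3, 1d-MI + 3 and 1d-SHAM + 3, with 4 libraries each, and 7d-MI + 21, 7d-SHAM + 21, 1d-MI + 21 and 1d-SHAM + 21, with 3 libraries each. The study used the day 1 operation as a model that still regenerates and the day 7 operation as one in which that ability is compromised, so each age has its own sham group.

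The cytokines of this family bind a ligand-specific receptor chain that pairs with the shared subunit gp130, the product of Il6st. Mouse oncostatin M signals mainly through the OSMR and gp130 pair, LIF through LIFR and gp130, and IL-6 and IL-11 through their own alpha receptors and gp130. The receptors activate JAK kinases and STAT3, and STAT3 induces Socs3, whose protein binds gp130 and shuts the signal off. In the heart the family is known for protecting cardiomyocytes after injury, and oncostatin M, made largely by macrophages and neutrophils, for cardiomyocyte dedifferentiation in adult hearts.

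Total counts per library were 33077962 to 51942648 at the 3-day follow-up and 40514177 to 168550985 at the 21-day follow-up. The 8 cardiomyocyte markers summed to 13197 to 31813 library-scaled counts (CPM) over the groups, which bears out heart muscle. That sum does not show the chamber or the remote zone. Ribosomal RNA genes took 2.92% to 25.9% of the counts at 3 days and 2.74% to 64.6% at 21 days. Olfactory and vomeronasal receptor genes, which the heart should not express, gave a measure of stray signal. Of 1342 such genes, the 1329 with a count in at most 20 of the 28 libraries were used, a selection made on these data. Of these, 1.43% to 2.33% had a count in 7d-MI + 3 libraries, 0.451% to 0.752% in 7d-SHAM + 3 and 20.3% to 65.2% in 1d-MI + 3. In 1d-SHAM + 3 the share was 37.6% and 33.0% in replicates 1 and 2 and 1.05% and 0.903% in replicates 3 and 4, which carry a different animal number prefix. Each prefix occurs in 1 group, so a litter or batch behind a prefix cannot be told apart from the group. The 21-day libraries were made with another kit, so levels are compared only within a follow-up. Replicates are separate animals, and the p-values measure the spread between these libraries. CPM are scaled with TMM factors, which even out differences in composition between libraries. A gene is called higher or lower where edgeR's quasi-likelihood test gave it a Benjamini-Hochberg adjusted p, over all genes tested, under 0.05.

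Il6, Osmr and Socs3 were higher after MI in both ages at 3 days, so the 250 bases before their RefSeq transcription start on GRCm38.p6 are shown. The windows lie at chr5:30012864-30013113 (plus strand), chr15:6874314-6874563 (minus strand) and chr11:117969367-117969616 (minus strand). They are written 5′ to 3′ on the gene's strand, and capitals mark matches to a motif.
Il6: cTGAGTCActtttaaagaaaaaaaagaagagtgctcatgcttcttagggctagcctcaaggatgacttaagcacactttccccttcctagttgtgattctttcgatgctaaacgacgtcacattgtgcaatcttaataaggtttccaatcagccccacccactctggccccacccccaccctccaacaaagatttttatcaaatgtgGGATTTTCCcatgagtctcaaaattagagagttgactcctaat
Osmr: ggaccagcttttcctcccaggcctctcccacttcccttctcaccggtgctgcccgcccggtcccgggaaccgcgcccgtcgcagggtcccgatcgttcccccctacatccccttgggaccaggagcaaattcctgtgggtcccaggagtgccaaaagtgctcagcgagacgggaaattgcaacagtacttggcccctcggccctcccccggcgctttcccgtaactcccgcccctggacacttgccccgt
Socs3: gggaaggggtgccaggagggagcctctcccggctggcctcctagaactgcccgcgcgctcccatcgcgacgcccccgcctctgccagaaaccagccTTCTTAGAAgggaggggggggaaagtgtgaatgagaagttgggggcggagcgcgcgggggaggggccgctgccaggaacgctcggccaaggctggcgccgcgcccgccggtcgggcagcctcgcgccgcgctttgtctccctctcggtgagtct
Windows were searched on both strands for the STAT motif TTCNNNGAA, the AP-1 motif TGANTCA and the kB motif GGANTTTCC, which do not overlap each other in these windows. Il6 had an AP-1 match starting 249 bases and a kB match starting 43 bases before the start. Socs3 had a STAT match starting 154 bases before the start, and the Osmr window had none of the 3. A STAT match was found in 7.02%, an AP-1 match in 6.75% and a kB match in 1.07% of 32851 promoter windows of that length. Of the 10 genes, 9 had a window, and their 11 windows held a STAT match in 1, an AP-1 match in 3 and a kB match in 1.

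At 3 days after MI on day 7, most of the family was higher in the remote myocardium. In 7d-MI + 3 against 7d-SHAM + 3, 7 of the 10 genes were higher (Osm, Lif, Il6, Osmr, Il6ra, Il6st and Socs3) and 1 was lower (Lifr). Over all 20345 genes tested, 34.0% were called, 19.8% higher and 14.2% lower. The members' median log2 fold change was 2.46, or 2.11 with Il6 at its lower bound and Il11 left out, against 0.08 over all genes. In 1d-MI + 3 against 1d-SHAM + 3, 3 of the 10 were higher (Il6, Osmr and Socs3) and none was lower, where 8.46% of genes were called, 4.10% higher and 4.36% lower. The median of the 10 was 1.24, against 0.06 over all genes. In bulk tissue, a change in the number of cells of a type and a change in RNA per cell cannot be told apart.

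**Figure D1:**
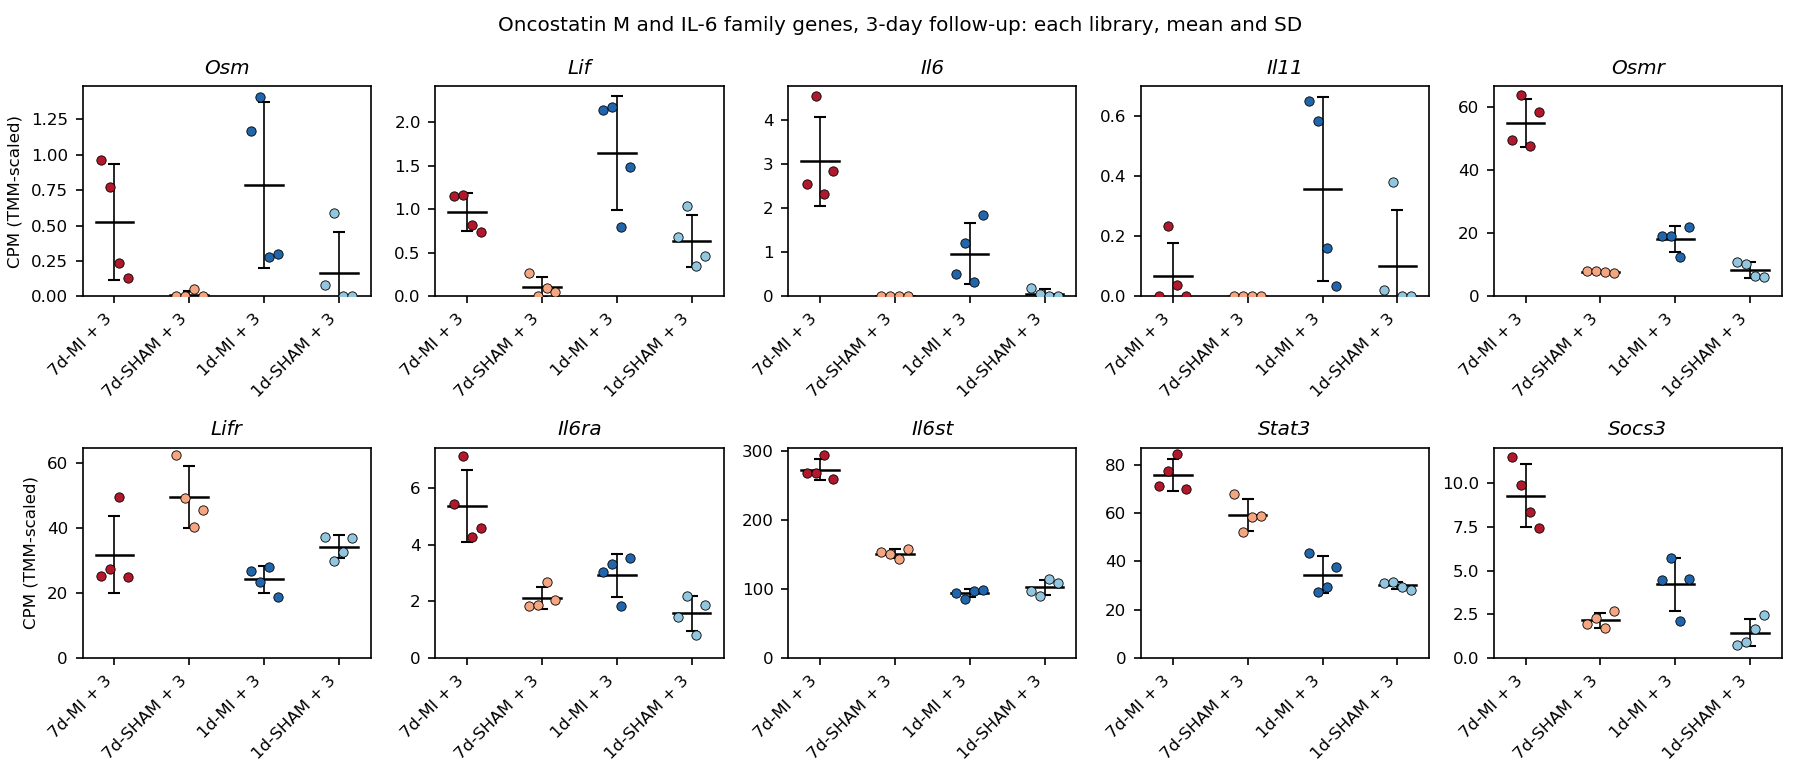
Level of each of the 10 genes in the 16 libraries of the 3-day follow-up (CPM, TMM-scaled). Points are single libraries and horizontal bars are group means, with vertical bars for 1 SD on each side. In the Osmr panel the 7d-MI + 3 libraries sit between 47.7 and 63.9 CPM, above every other library.

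Il6 (ENSMUSG00000025746, chromosome 5, 30013114 to 30019981 on GRCm38) encodes the acute-phase cytokine that gives the family its name. It measured 2.54, 4.54, 2.33 and 2.84 CPM in 7d-MI + 3 (137, 235, 119 and 131 counts), and no count in any of the 4 7d-SHAM + 3 libraries. Set against a floor of 3 counts per library, Il6 was at least 34.7-fold higher in 7d-MI + 3 (edgeR adjusted p = 1.2e-05). In the younger mice, Il6 was 0.503, 1.21, 0.337 and 1.84 CPM in 1d-MI + 3, against 0.199, 0.0634, 0 and 0 CPM in 1d-SHAM + 3. The groups did not overlap and the log2 fold change was 3.71 (SE 0.77, edgeR adjusted p = 0.011). This call was lost in limma-voom with the prefix as a block (adjusted p = 0.076) and with only the compared groups in the fit (0.093).

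Osm (ENSMUSG00000058755, chromosome 11, 4236420 to 4241026) encodes oncostatin M. It measured 0.965, 0.774, 0.235 and 0.130 CPM in 7d-MI + 3, against 0, 0, 0.0512 and 0 CPM in 7d-SHAM + 3. Every MI library was above every sham library, with 110 counts in all against 2, a ratio of 37.4 (exact 95% counting interval 10.1 to 313, edgeR adjusted p = 0.0093). That interval pools the libraries of a group and covers counting error only, not the spread between animals, so it is too narrow. With the prefix block the adjusted p was 0.075. In 1d-MI + 3, Osm was 1.17, 1.41, 0.278 and 0.300 CPM, against 0.0796, 0.592, 0 and 0 CPM in 1d-SHAM + 3. Sham replicate 2 lay above 2 of the MI libraries, and the log2 fold change of 2.18 (SE 1.07) did not pass (edgeR adjusted p = 0.19). Without that library the adjusted p was 0.019, and with only sham replicates 3 and 4 it was 0.005. The stray signal would account for 0.0287 to 0.164 CPM of Osm in 1d-MI + 3, below each measured level.

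Lif encodes leukemia inhibitory factor. It was 1.15, 1.16, 0.823 and 0.738 CPM in 7d-MI + 3, against 0.272, 0, 0.102 and 0.0543 CPM in 7d-SHAM + 3. The groups were far apart, with a log2 fold change of 3.18 (SE 0.63, edgeR adjusted p = 5.4e-04). In 1d-MI + 3, Lif was 2.14, 2.17, 0.794 and 1.48 CPM, against 0.677, 1.04, 0.354 and 0.466 CPM in 1d-SHAM + 3. Those groups overlapped and the difference did not pass (log2 fold change 1.37, SE 0.53, edgeR adjusted p = 0.11), except in DESeq2 (0.041) and with only 1d-SHAM + 3 replicates 3 and 4 (0.036). Il11, the fibroblast-acting member of the family, was barely detected: 0, 0.232, 0.0392 and 0 CPM in 7d-MI + 3 and no count in 7d-SHAM + 3 (edgeR adjusted p = 0.14). It was 0.649, 0.581, 0.159 and 0.0354 CPM in 1d-MI + 3, against 0.0199, 0.381, 0 and 0 CPM in 1d-SHAM + 3 (edgeR adjusted p = 0.43).

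Osmr (ENSMUSG00000022146, chromosome 15, 6813577 to 6874969) encodes the receptor chain for oncostatin M. It measured 49.8, 63.9, 47.7 and 58.6 CPM in 7d-MI + 3, against 8.02, 8.02, 7.79 and 7.41 CPM in 7d-SHAM + 3. The lowest MI library was far above the highest sham library, and the log2 fold change was 2.82 (SE 0.20, edgeR adjusted p = 1.0e-08). In 1d-MI + 3, Osmr was 19.3, 19.2, 12.5 and 21.9 CPM, against 10.8, 10.4, 6.49 and 6.19 CPM in 1d-SHAM + 3. All 4 MI libraries were again above all 4 sham libraries, with a smaller log2 fold change of 1.11 (SE 0.19, edgeR adjusted p = 0.0026). Of the 3 genes called in both ages, Osmr kept its calls under every alternative run. By mean, its order over the 3-day groups was 7d-MI + 3 (55.0 ± 7.57 CPM, SD, n = 4), 1d-MI + 3 (18.2 ± 4.03), 1d-SHAM + 3 (8.45 ± 2.45) and 7d-SHAM + 3 (7.81 ± 0.288). The sham groups were within their spread of each other.

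Il6st (ENSMUSG00000021756, chromosome 13, 112464070 to 112510086), the gene for gp130, measured 268, 268, 294 and 259 CPM in 7d-MI + 3, against 153, 151, 143 and 157 CPM in 7d-SHAM + 3. The groups were clearly separate and the log2 fold change was 0.85 (SE 0.11, edgeR adjusted p = 8.1e-06). In 1d-MI + 3 it was 94.6, 85.3, 96.3 and 98.2 CPM, against 96.1, 90.2, 114 and 108 CPM in 1d-SHAM + 3. These groups overlapped (log2 fold change -0.12, SE 0.11, edgeR adjusted p = 0.47), and the sign of this difference turned under upper-quartile scaling, to 0.02.

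Il6ra, the IL-6 receptor alpha chain, was 5.44, 7.12, 4.27 and 4.60 CPM in 7d-MI + 3, against 1.84, 1.86, 2.69 and 2.06 CPM in 7d-SHAM + 3. The groups did not overlap and the log2 fold change was 1.34 (SE 0.28, edgeR adjusted p = 9.4e-04). In 1d-MI + 3 it was 3.02, 3.31, 1.83 and 3.54 CPM, against 1.43, 2.20, 0.797 and 1.86 CPM in 1d-SHAM + 3. MI replicate 3 lay among the shams and the difference just missed (log2 fold change 0.90, SE 0.28, edgeR adjusted p = 0.054). Of 28 alternatives, 9 called it: RLE (0.049) and upper-quartile scaling (0.04), TMM without the most abundant genes (0.048), no filter (0.044), the stricter filter (0.038), DESeq2 (0.024), only 1d-SHAM + 3 replicates 3 and 4 (0.021), and leaving out 1d-MI + 3 replicate 3 (0.02) or 1d-SHAM + 3 replicate 2 (0.022).

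Lifr, the receptor chain for LIF, went the other way. It was 25.2, 27.4, 49.4 and 25.0 CPM in 7d-MI + 3, against 62.5, 49.3, 40.1 and 45.6 CPM in 7d-SHAM + 3. Replicate 3 of 7d-MI + 3 lay among the shams, and Lifr was lower by a log2 fold change of -0.64 (SE 0.20, edgeR adjusted p = 0.016). The call was lost without 7d-SHAM + 3 replicate 1 (adjusted p = 0.085) or any of 7d-MI + 3 replicates 1, 2 and 4 (0.067, 0.064 and 0.072). In 1d-MI + 3, Lifr was 26.8, 23.3, 28.1 and 18.8 CPM, against 37.2, 29.9, 32.6 and 36.9 CPM in 1d-SHAM + 3. All MI libraries were below all sham libraries, yet the log2 fold change of -0.49 (SE 0.20) did not pass (edgeR adjusted p = 0.12). It passed without a filter (0.024) and without 7d-MI + 3 replicate 3 (0.04).

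Stat3 (ENSMUSG00000004040, chromosome 11, 100885098 to 100939540), the transcription factor that the receptors activate by phosphorylation, measured 71.0, 77.5, 84.2 and 69.8 CPM in 7d-MI + 3, against 68.0, 51.9, 58.5 and 58.8 CPM in 7d-SHAM + 3. All MI libraries were above all sham libraries, by little, and the log2 fold change of 0.35 (SE 0.14) missed the threshold (edgeR adjusted p = 0.057). It passed in 4 of 26 alternatives, with only the compared groups in the fit (0.039) and without 1d-MI + 3 replicate 1 (0.036) or 2 (0.041) or 7d-SHAM + 3 replicate 1 (0.043). In 1d-MI + 3 it was 43.5, 27.2, 29.3 and 37.7 CPM, against 31.0, 31.5, 29.5 and 28.3 CPM in 1d-SHAM + 3, with overlap (log2 fold change 0.19, SE 0.14, edgeR adjusted p = 0.36). Transcript level does not report STAT3 phosphorylation.

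Socs3 (ENSMUSG00000053113, chromosome 11, 117966079 to 117970047), the feedback inhibitor, measured 11.5, 9.88, 8.34 and 7.46 CPM in 7d-MI + 3, against 1.97, 2.29, 1.69 and 2.66 CPM in 7d-SHAM + 3. The groups were well apart and the log2 fold change was 2.11 (SE 0.33, edgeR adjusted p = 5.2e-05). In 1d-MI + 3 it was 4.46, 5.74, 2.10 and 4.51 CPM, against 0.717, 0.930, 1.68 and 2.46 CPM in 1d-SHAM + 3. The lowest MI library lay under the highest sham library, but the log2 fold change of 1.56 (SE 0.33) passed (edgeR adjusted p = 0.0093). That call was lost with the prefix block (adjusted p = 0.058) and with only the compared groups in the fit (0.085).

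**Figure D2:**
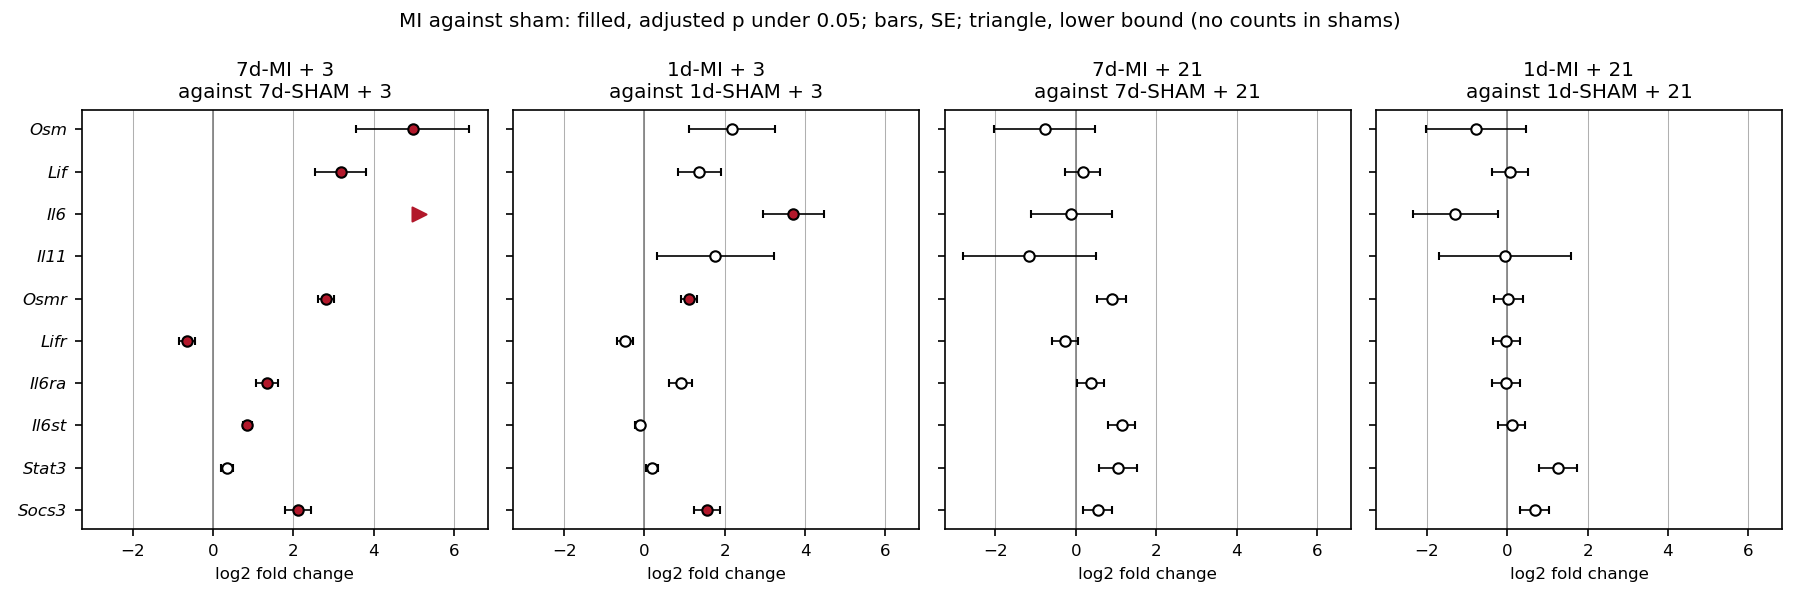
Log2 fold change of MI against the age-matched sham for each of the 10 genes at the 3-day and 21-day follow-ups, with 1 SE as the error bar where the fit gave one. Filled points passed an adjusted p of 0.05 and a triangle marks a lower bound (Il6, at least 34.7-fold). Il11 has no point for 7d-MI + 3, where both groups were at or under the floor, and the Osm point there rests on 2 counts in 7d-SHAM + 3.

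Per kilobase of gene, Il6st had the highest mean level of the 10 in 7d-MI + 3, and Osm, Lif and Il11 the lowest. In 7d-MI + 3 the mean CPM per kilobase was 24.5 for Il6st, 7.94 for Stat3, 4.54 for Osmr, 3.22 for Socs3 and 3.07 for Lifr. Il6 had 1.26, Il6ra 0.620, Osm 0.232, Lif 0.223 and Il11 0.0510. Osmr and Lifr stood in the reverse order in 7d-SHAM + 3, where Lifr had 4.78 and Osmr 0.645 CPM per kilobase.

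The MI groups were then compared with each other across ages. In 7d-MI + 3 against 1d-MI + 3, 6 of the 10 genes were higher and none was lower, where 43.0% of all genes were called, 19.4% higher and 23.5% lower. The members' median log2 fold change was 1.00, against -0.13 over all genes. Osmr was higher by 1.59 (SE 0.19, edgeR adjusted p = 3.4e-06), Il6st by 1.54 (SE 0.11, 3.8e-08) and Stat3 by 1.13 (SE 0.14, 6.1e-06), each with no overlap of libraries. Socs3 was higher by 1.15 (SE 0.31, edgeR adjusted p = 0.0067), Il6ra by 0.87 (SE 0.28, 0.015) and Il6 by 1.65 (SE 0.62, 0.04), also without overlap. The Il6 call was lost without any 1 of 7 of the 16 libraries, namely 1d-MI + 3 replicates 1, 2 and 3 and each 7d-MI + 3 replicate (adjusted p up to 0.12), and under upper-quartile scaling (0.084). The Il6ra call was lost without 7d-MI + 3 replicate 2 (0.058) and under upper-quartile scaling (0.09). Osm (log2 fold change -0.58, edgeR adjusted p = 0.67), Lif (-0.76, 0.25) and Lifr (0.39, 0.12) overlapped between the MI groups, with Lifr called without a filter (0.021).

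The sham groups differed as well. In 7d-SHAM + 3 against 1d-SHAM + 3, 2 of the 10 genes were higher and 1 lower, where 20.3% of all genes were called, 8.12% higher and 12.2% lower. Stat3 was higher by 0.98 (SE 0.14, edgeR adjusted p = 9.2e-05) and Il6st by 0.57 (SE 0.11, 0.0015). Lif was lower, at -2.58 (SE 0.63, edgeR adjusted p = 0.0078), with every 7d-SHAM + 3 library below every 1d-SHAM + 3 library. With only 1d-SHAM + 3 replicates 3 and 4, the ones with little stray signal, the adjusted p was 0.11 for Lif and 0.077 for Il6st, and the prefix block gave 0.15 for Lif. Lifr (0.53, edgeR adjusted p = 0.06) and Socs3 (0.60, 0.21) did not pass. Lifr was called in 4 of 28 alternatives, namely without a filter (0.016), in DESeq2 (0.043), with only the compared groups (0.023) and without 7d-MI + 3 replicate 3 (0.019). Socs3 was called in 2, with only 1d-SHAM + 3 replicates 1 and 2 (0.002) and without 1d-SHAM + 3 replicate 4 (0.035).

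Whether the MI effect itself differed between the ages was tested as an interaction, the effect at day 7 minus the effect at day 1. It was called for 3 of the 10 genes, all higher, where 13.1% of all genes were called, 9.01% higher and 4.07% lower. For Osmr the effect was larger at day 7 by 1.71 on the log2 scale (SE 0.26, edgeR adjusted p = 6.0e-04), and for Il6st by 0.97 (SE 0.16, 7.3e-04). Il6 passed with an adjusted p of 0.028 and no size, since 7d-SHAM + 3 had no counts. It was lost without 1d-SHAM + 3 replicate 1 (0.12) or without 7d-SHAM + 3 replicate 2, 3 or 4 (0.051 to 0.053). It was also lost in limma-voom without (0.15) and with (0.3) the prefix block, with the stray signal subtracted (0.077), and with only 1d-SHAM + 3 replicates 3 and 4 (1). For Socs3 the difference was 0.55 (SE 0.46, edgeR adjusted p = 0.48), for Il6ra 0.44 (SE 0.40, 0.52) and for Stat3 0.16 (SE 0.20, 0.67). The Stat3 difference turned to -0.09 under upper-quartile scaling, and the Socs3 difference to -0.21 with only 1d-SHAM + 3 replicates 1 and 2.

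At 3 days after MI, the called macrophage, monocyte and neutrophil markers were all higher in both ages. Called markers of the general cardiomyocyte list were all lower, those of the atrial list were higher, and those of fibroblasts went both ways. Of 4 T cell and thymus markers tested, 1 was lower in 7d-MI + 3 and none was called in 1d-MI + 3. The 10 macrophage and monocyte markers were all higher in 7d-MI + 3, where their summed level was 281 to 480 CPM, against 91.1 to 119 CPM in 7d-SHAM + 3. In 1d-MI + 3, 5 of the 10 were higher, with sums of 71.6 to 180 CPM, against 38.2 to 53.6 CPM in 1d-SHAM + 3. All 7 neutrophil markers tested, of 8, were higher in 7d-MI + 3 (37.6 to 73.0 CPM, against 2.48 to 4.49 CPM in 7d-SHAM + 3). In 1d-MI + 3, 5 of the 7 were higher (21.2 to 26.1 CPM, against 3.48 to 8.03 CPM in 1d-SHAM + 3). The 7 fibroblast markers summed to 4259 to 5060 CPM in 7d-MI + 3 and 2796 to 3101 CPM in 7d-SHAM + 3, with 5 higher and 2 lower. In 1d-MI + 3 they summed to 1210 to 2055 CPM and in 1d-SHAM + 3 to 1559 to 1875 CPM, with 2 higher and 1 lower. The 8 cardiomyocyte markers summed to 15640 to 26008 CPM in 7d-MI + 3 and 30066 to 31813 CPM in 7d-SHAM + 3, with 5 lower. In 1d-MI + 3 they summed to 13197 to 18890 CPM and in 1d-SHAM + 3 to 18433 to 22539 CPM, with 2 lower. The 5 atrial cardiomyocyte markers, of which 4 were tested, summed to 729 to 2231 CPM in 7d-MI + 3 and 99.2 to 157 CPM in 7d-SHAM + 3, with 1 higher, and to 2249 to 4172 CPM in 1d-MI + 3 and 36.0 to 314 CPM in 1d-SHAM + 3, with 2 higher. Of these, Bmp10 was at 0 in 7d-SHAM + 3 and Sln in 7d-MI + 3. No macrophage, neutrophil, fibroblast or general cardiomyocyte marker was at 0 in every library of a group, and the part of these cells in the members' results was not tested.

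**Figure D3:**
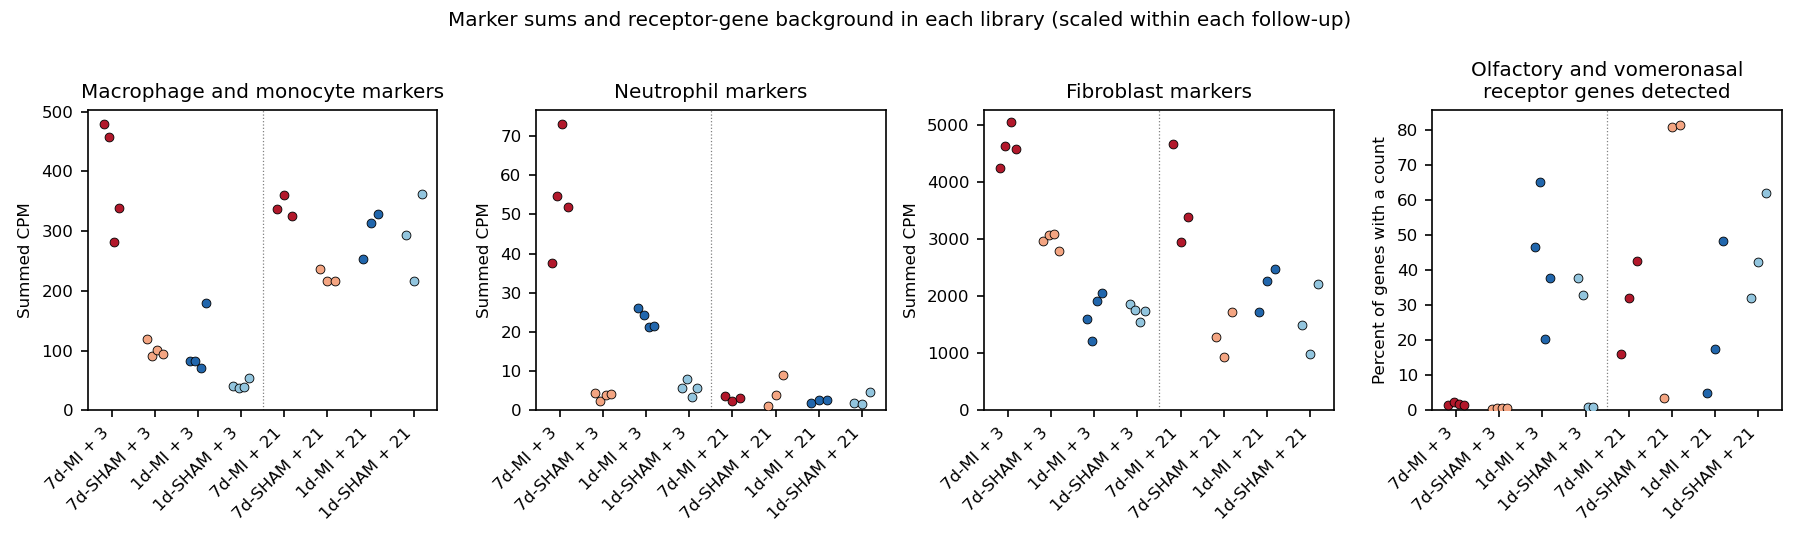
Summed level of the macrophage and monocyte, neutrophil and fibroblast markers in each library, by group (CPM, linear axes from 0), and, in the right panel, the percent of 1329 olfactory and vomeronasal receptor genes with a count. A dotted line parts the 3-day from the 21-day groups. The 7d-MI + 3 libraries have 281 to 480 CPM of macrophage and monocyte markers, against 91.1 to 119 CPM in 7d-SHAM + 3.

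The genes whose log2 CPM followed Osmr most closely over the 16 libraries of the 3-day follow-up, among 8560 genes, were Lox (Pearson r = 0.991), Il1r1 (0.984), Arg1 (0.984), Ltbp2 (0.981) and Col12a1 (0.981). Lox encodes a collagen cross-linking enzyme, Il1r1 the interleukin-1 receptor and Col12a1 a collagen chain. For Socs3 they were S100a4 (0.946), Clu (0.945), Lyz2 (0.934), Mpeg1 (0.933) and Tlr7 (0.932), of which Lyz2 and Mpeg1 are macrophage genes. Among the other 9 members, Il6 followed Osmr most closely (0.959), then Il6ra (0.878) and Socs3 (0.836). The libraries share the group differences, so these values describe the groups as much as the libraries within them.

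Of 12 further ligands and receptors of the family, 10 were tested at 3 days, and 3 were higher and none lower in 7d-MI + 3 against 7d-SHAM + 3, beside 19.8% of all genes higher and 14.2% lower. Their median was 1.19, or 1.31 without 1 gene that had no counts in either group, against 0.08 over all genes. Among them, Ebi3, a subunit of IL-27, was higher by 2.27 on the log2 scale (SE 0.74, edgeR adjusted p = 0.021) and Cntf, ciliary neurotrophic factor, by 1.07 (SE 0.31, 0.011). In 1d-MI + 3 against 1d-SHAM + 3, 0 of the 10 passed by edgeR and 5 had an unadjusted p under 0.05, with Ebi3 closest (2.14, SE 0.72, edgeR adjusted p = 0.066). Between the MI groups Il31ra was lower in 7d-MI + 3, with no count there and 0.198 to 1.85 CPM in 1d-MI + 3 (edgeR adjusted p = 0.0029), where stray signal was also higher, and the part of that signal in this difference was not tested. Cntf was lower in 7d-SHAM + 3 than in 1d-SHAM + 3 by a log2 fold change of -1.73 (SE 0.31, edgeR adjusted p = 7.5e-04).

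Of 22 JAK kinases, other STATs and inhibitors, 21 were tested, and in 7d-MI + 3 against 7d-SHAM + 3, 5 were higher and 4 lower (median 0.04), beside 19.8% of all genes higher and 14.2% lower. The higher ones were Ptpn6, a phosphatase of blood cells (log2 fold change 2.34, SE 0.38, edgeR adjusted p = 1.1e-04), Jak2 (0.53), Jak1 (0.41), Jak3 (0.91) and Pias3, an inhibitor of STAT3 (0.92). The lower ones were Cish (-1.88, SE 0.21, edgeR adjusted p = 1.7e-06) and Socs2 (-1.08), which are inhibitors induced by STAT5, and Stat5b (-0.39) and Stat5a (-0.48) themselves. In 1d-MI + 3 against 1d-SHAM + 3, only Ptpn6 passed (1.45, SE 0.38, edgeR adjusted p = 0.027), with overlap of the groups. The MI effect differed between the ages for Jak1, which was higher at day 7 by 0.55 (SE 0.17, edgeR adjusted p = 0.039), and for Cish, lower by -1.97 (SE 0.30, 5.2e-04). In 7d-MI + 3 against 1d-MI + 3, 7 were higher, led by Jak1 (1.05), Stat6 (0.85) and Socs5 (0.87), and Cish was lower (-0.81). In 7d-SHAM + 3 against 1d-SHAM + 3, 8 were higher, led by Cish (1.15), Socs5 (0.71) and Jak1 (0.49). Over all genes, 19.4% were higher and 23.5% lower between the MI groups, and 8.12% and 12.2% between the shams. In the same order, 4.10% and 4.36% were called in 1d-MI + 3, and 9.01% and 4.07% for the difference between ages.

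A list of 30 genes known to respond to STAT3 had 28 tested at 3 days. Like the other lists, it was chosen with earlier results of these data known, so its counts are a description and no independent support. In 7d-MI + 3 against 7d-SHAM + 3, 15 were higher and 2 lower, beside the same 19.8% and 14.2%, with a median of 1.56, or 1.46 without Gfap, which had no counts in 7d-SHAM + 3. The strongest by p were Myc, a growth regulator (log2 fold change 2.42, SE 0.19, edgeR adjusted p = 3.1e-08), the transcription factor Runx1 (4.05, SE 0.35, 1.7e-07) and the AP-1 subunit Junb (2.35, SE 0.24, 4.5e-07). Fgl2 (-0.54) and the angiogenic factor Vegfa (-0.50) were lower. Beside 4.10% of all genes higher and 4.36% lower in 1d-MI + 3 against 1d-SHAM + 3, 11 of the list were higher and 1 lower. They were led by Runx1 (1.92, SE 0.33, edgeR adjusted p = 0.0032), the hemoglobin-binding protein Hp (3.74, SE 0.67, 0.0035) and the protease inhibitor Timp1 (2.15, SE 0.37, 0.0046), and Ccnd1, cyclin D1, was lower (-0.86, SE 0.17, 0.0062).

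The MI effect on 8 of these 28 genes was larger at day 7 than at day 1 and on none smaller, beside 9.01% of all genes with a larger and 4.07% with a smaller effect. Myc led (difference 1.80, SE 0.26, edgeR adjusted p = 3.3e-04), followed by Fos (4.17, SE 0.73, 0.0015) and the interleukin-4 receptor Il4ra (1.31, SE 0.28, 0.0043). In 7d-MI + 3 against 1d-MI + 3, 15 were higher, led by Il4ra (1.88), Myc (1.29) and Runx1 (2.36), and 2 were lower, Vegfa (-0.83) and Gfap. Over all genes, 19.4% were higher and 23.5% lower there. Gfap had 0 to 0.0743 CPM in 7d-MI + 3 and 0.0992 to 2.05 CPM in 1d-MI + 3 (edgeR adjusted p = 0.0085), and the part of stray signal in it was not tested. Between the shams, 8.12% of all genes were higher in 7d-SHAM + 3 than in 1d-SHAM + 3 and 12.2% were lower. Of the list, 4 were higher (Cebpb, Icam1, Bcl2l1 and Il4ra) and 2 lower (Fos and Gfap). Many of these genes respond to other signals too and several are expressed by macrophages.

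**Figure D4:**
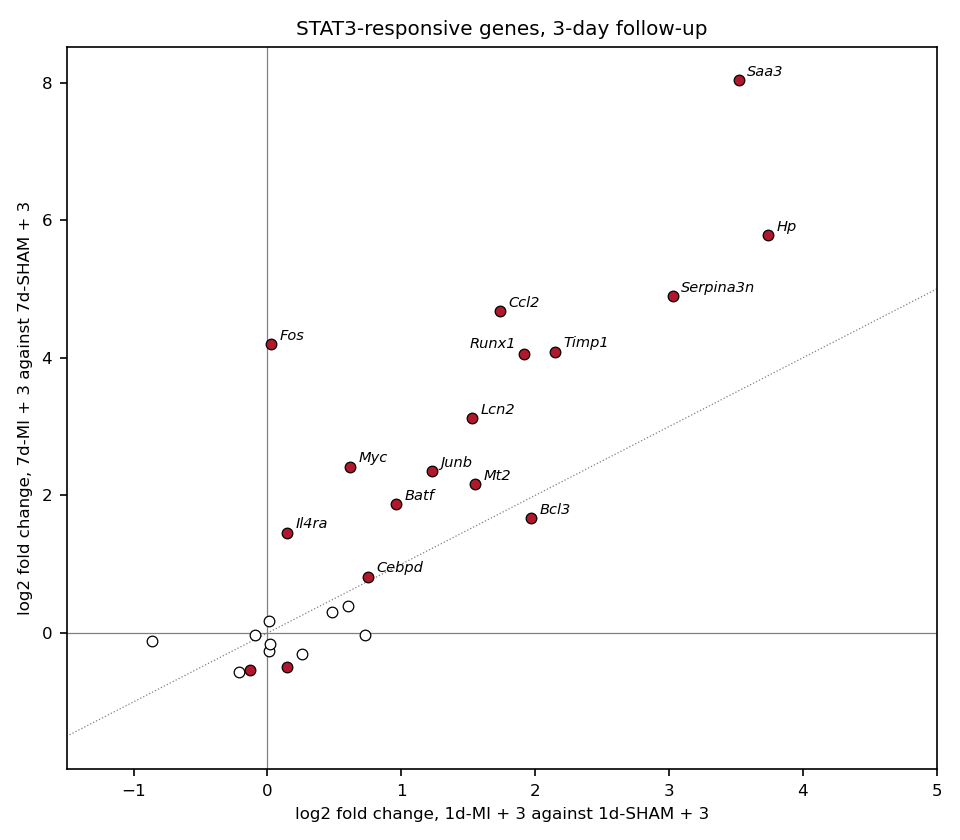
Log2 fold change of the STAT3-responsive genes in 7d-MI + 3 against 7d-SHAM + 3 (vertical) and in 1d-MI + 3 against 1d-SHAM + 3 (horizontal). Filled points passed in 7d-MI + 3, names mark those that were higher there, and the dotted line marks equal values. Gfap, with no counts in 7d-SHAM + 3, is not drawn.

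At the 21-day follow-up none of the 10 genes was called by edgeR in any comparison. At an unadjusted p under 0.05 they numbered 3 in 7d-MI + 21 against 7d-SHAM + 21 (Osmr, Il6st and Stat3), 1 in 1d-MI + 21 against 1d-SHAM + 21 (Stat3) and 4 in 7d-MI + 21 against 1d-MI + 21 (Il6, Osmr, Il6st and Socs3), and DESeq2 called 1, Il6st in 7d-MI + 21. Of 24646 genes tested with edgeR's quasi-likelihood test, 0% were called in 7d-MI + 21 against 7d-SHAM + 21, 0.0162% in 1d-MI + 21 against 1d-SHAM + 21 (0.00811% in each direction) and 0.0325% in 7d-MI + 21 against 1d-MI + 21 (0.0243% higher and 0.00811% lower). Between the shams and for the interaction, 0% were called. At an unadjusted p under 0.05 these comparisons held 4111, 3599, 1606, 442 and 927 genes, and DESeq2 called 1028, 328, 208, 0 and 44. Libraries of a group varied more at 21 days (edgeR's common biological coefficient of variation was 0.567, against 0.331 at 3 days) and were fewer, and the absence of calls does not show that the levels were the same.

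**Figure D5:**
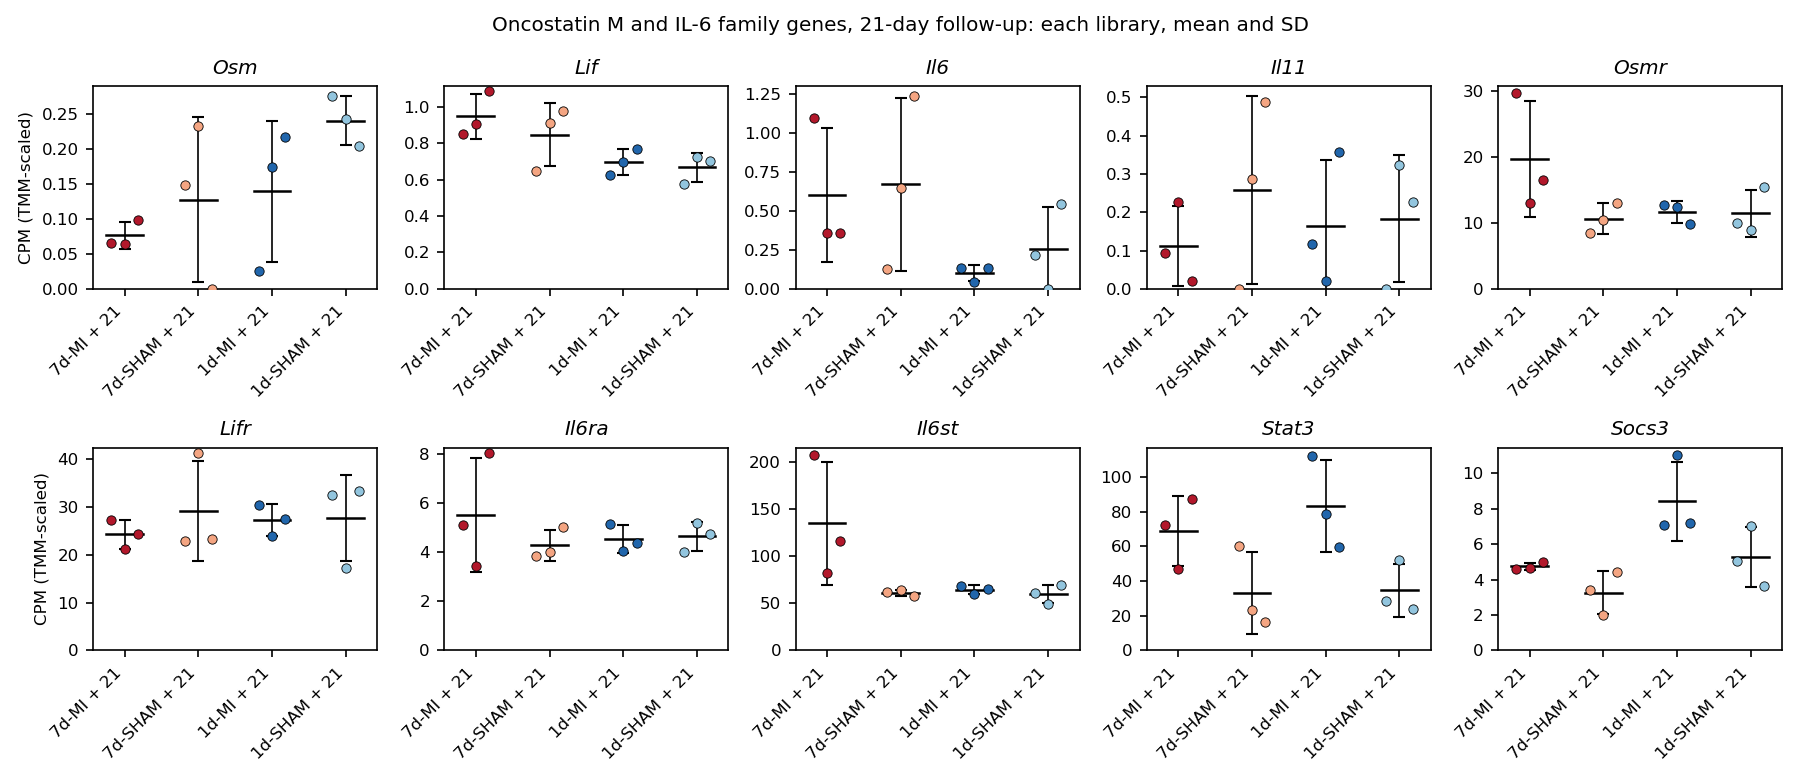
Level of each of the 10 genes in the 12 libraries of the 21-day follow-up (CPM, TMM-scaled), drawn as for the 3-day follow-up. All 3 7d-MI + 21 libraries have more Il6st than every 7d-SHAM + 21 library.

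Il6st measured 208, 81.9 and 116 CPM in 7d-MI + 21, against 61.7, 64.5 and 58.2 CPM in 7d-SHAM + 21. The groups did not overlap, and the log2 fold change of 1.14 (SE 0.34) had an edgeR adjusted p of 0.22, while DESeq2 gave 0.038. In 1d-MI + 21 it was 69.0, 59.5 and 65.7 CPM, against 61.0, 49.4 and 69.2 CPM in 1d-SHAM + 21, with overlap. Osmr was 29.7, 13.0 and 16.5 CPM in 7d-MI + 21, against 8.42, 10.5 and 13.1 CPM in 7d-SHAM + 21. The lowest MI library lay under the highest sham library (log2 fold change 0.89, SE 0.36, edgeR adjusted p = 0.26). In 1d-MI + 21, Osmr was 12.7, 12.5 and 9.79 CPM, against 9.97, 8.87 and 15.5 CPM in 1d-SHAM + 21, with no order between the groups.

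Stat3 was 72.3, 47.0 and 87.3 CPM in 7d-MI + 21, against 60.0, 23.3 and 16.2 CPM in 7d-SHAM + 21. Sham replicate 1 lay within the MI range (log2 fold change 1.05, SE 0.47, edgeR adjusted p = 0.29). In 1d-MI + 21 it was 112, 78.7 and 59.8 CPM, against 28.4, 52.0 and 23.7 CPM in 1d-SHAM + 21. Here the groups did not overlap (log2 fold change 1.27, SE 0.47, edgeR adjusted p = 0.3). Without 7d-SHAM + 21 replicate 1, whose share of receptor genes with a count was 3.46% against 80.7% and 81.5% in the other two, Il6st (adjusted p = 0.035) and Stat3 (0.0075) passed in 7d-MI + 21, and Stat3 (0.043) in 1d-MI + 21.

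Socs3 was 4.60, 4.64 and 4.99 CPM in 7d-MI + 21, against 3.41, 1.97 and 4.40 CPM in 7d-SHAM + 21. In 1d-MI + 21 it was 7.08, 11.0 and 7.18 CPM, against 5.07, 7.02 and 3.65 CPM in 1d-SHAM + 21. All MI libraries were above their shams at both ages, with log2 fold changes of 0.55 (SE 0.36, edgeR adjusted p = 0.43) at day 7 and 0.68 (SE 0.36, 0.38) at day 1. Every 7d-MI + 21 library was below every 1d-MI + 21 library (log2 fold change -0.83, SE 0.36, edgeR adjusted p = 0.72). Between the MI groups Il6st (1.07, SE 0.34, edgeR adjusted p = 0.48) and Osmr (0.76, SE 0.36, 0.76) were higher in each 7d-MI + 21 library without passing, as was Il6 (2.49, SE 1.07, 0.71). The share of all genes whose libraries separate in this way was not counted, for these or the other 21-day comparisons.

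The ligands were low at 21 days. Il6 was 1.10, 0.356 and 0.356 CPM in 7d-MI + 21, against 0.128, 0.645 and 1.24 CPM in 7d-SHAM + 21. The stray signal would give 0.245 and 0.606 CPM of Il6 in sham replicates 2 and 3, so their levels cannot be read as expression of Il6 alone. Il6 was 0.131, 0.0436 and 0.135 CPM in 1d-MI + 21, against 0.220, 0 and 0.544 CPM in 1d-SHAM + 21. Lif was 0.852 to 1.09 CPM in 7d-MI + 21 and 0.650 to 0.977 CPM in 7d-SHAM + 21, where the stray signal would give up to 1.08 CPM. Osm was 0.0647 to 0.0989 CPM in 7d-MI + 21 and 0 to 0.233 CPM in 7d-SHAM + 21, and Il11 0.0198 to 0.226 CPM and 0 to 0.488 CPM in those groups. Lifr was 21.3 to 27.3 CPM in 7d-MI + 21 and 23.0 to 41.3 CPM in 7d-SHAM + 21, and Il6ra 3.44 to 8.04 CPM and 3.84 to 5.02 CPM. At this follow-up macrophage and monocyte markers summed to 326 to 361 CPM in 7d-MI + 21 and 216 to 237 CPM in 7d-SHAM + 21. Fibroblast markers summed to 2946 to 4672 CPM and 939 to 1735 CPM in those groups. Atrial cardiomyocyte markers summed to 2143 to 4518 CPM in 7d-MI + 21 and 88.4 to 970 CPM in 7d-SHAM + 21. Mesothelial and epicardial markers summed to 16.6 to 29.8 CPM and 6.56 to 10.2 CPM, and adipocyte markers to 11.4 to 18.3 CPM and 0.298 to 8.39 CPM. No single marker of these lists was called in 7d-MI + 21 against 7d-SHAM + 21, where 0% of all genes were called. The part of these cells in the Il6st and Osmr levels was not tested.

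Whether the MI effect changed between follow-ups was tested in 1 fit of all 28 libraries, as the effect at 21 days minus the effect at 3 days, each within its own kit. For the day 7 operation, 3 of the 10 genes were lower at 21 days and none higher, where 5.03% of 26250 genes were called, 1.95% higher and 3.08% lower. Osmr differed by -1.85 on the log2 scale (SE 0.37, edgeR adjusted p = 0.0039) and Lif by -2.95 (SE 0.79, 0.025). Il6 passed with an adjusted p of 0.0014 and no size, for lack of counts in 7d-SHAM + 3. The Lif call was lost without any 1 of 8 of the 28 libraries, 3 from the 3-day groups (7d-MI + 3 replicate 2 and 7d-SHAM + 3 replicates 2 and 4) and 5 from the 21-day groups (each 7d-MI + 21 replicate and 7d-SHAM + 21 replicates 2 and 3), with adjusted p up to 0.078, with the stray signal subtracted (0.23), and without a filter (0.078). Socs3 differed by -1.49 (SE 0.49, edgeR adjusted p = 0.068) and did not pass, but did under RLE (0.034) and upper-quartile scaling (0.028), the stricter filter (0.023) and DESeq2 (0.012), and without 7d-SHAM + 21 replicate 1 (0.042).

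For the day 1 operation, 1 of the 10 genes was lower, where 7.79% of all genes were called, 5.44% higher and 2.35% lower. This was Il6, at -4.79 (SE 1.30, edgeR adjusted p = 0.029), lost without any 1 of 7 of the 28 libraries: 1d-MI + 3 replicates 2 and 4, 1d-SHAM + 3 replicates 3 and 4, 1d-MI + 21 replicates 1 and 2 and 1d-SHAM + 21 replicate 3 (adjusted p up to 0.11). It was also lost in limma-voom (0.053). Osmr differed by -0.86 (SE 0.37, edgeR adjusted p = 0.12), and was called under RLE (0.042) and upper-quartile scaling (0.032), the stricter filter (0.029) and DESeq2 (0.016). Of the STAT3-responsive genes, 6 were lower and 1 higher for the day 7 operation, with Runx1 (-3.49), Ccl2 (-4.41) and Junb (-2.36) leading and Fgl2 (2.43) the one that was higher. For the day 1 operation 4 were higher (Ccnd1, Fos, Il4ra and Vegfa) and 4 lower (Hp, Runx1, Timp1 and Serpina3n). Beside these counts, 1.95% of all genes were higher and 3.08% lower for day 7, and 5.44% and 2.35% for day 1. Of the other lists, Cish (2.13) was higher for day 7, and Stat5b (1.81) and Socs7 (1.09) were higher and Socs1 (-3.73) and Cntfr (-4.45) lower for day 1. Socs1 and Cntfr had low group means after the day 1 operation (0.0576 to 1.48 and 0.146 to 1.10 CPM). The part of stray signal in their differences was not tested.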

How the data were processed

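RNA-seq of 28 left ventricles was analysed from gene tables. Per the submitters' notes, reads were processed with TopHat2 2.0.11, Bowtie2 2.2.2 and Cufflinks 2.2.1 on GRCm38. A counting tool, strand setting and annotation were not given in the sources used here. The authors deposited counts, CPM and RPKM per gene. The deposited CPM equalled the count over the file total (difference at most 5.2e-10) and RPKM adds gene length. Only the deposited counts were used. Most low counts were even (62.1% to 83.1% of counts from 2 to 50), as when both reads of a pair are counted, so intervals and floors, which cover counting error only, are too narrow. For 2 libraries, 2 lanes were summed. Libraries of the 3-day follow-up were made with TruSeq stranded total RNA and those of the 21-day follow-up with ScriptSeqV2.

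Counts were filtered (filterByExpr, minimum count 10), TMM-scaled and tested with edgeR 4.0.16 quasi-likelihood (robust) in R 4.3.3, apart for each follow-up (16 and 12 libraries) and, for differences between follow-ups, in all 28. P-values were adjusted by Benjamini-Hochberg over 20345, 24646 and 26250 genes, with a threshold of 0.05. Alternatives were RLE and upper-quartile scaling, TMM after removing the 20 most abundant genes, no low-count filter, a mean count of at least 50, DESeq2 1.42.0, limma-voom (limma 3.58.1) with and without the name prefix as a random block, a replicate block at 21 days, the compared groups alone and each library left out. Chosen after seeing the data were subtraction of receptor-gene counts per kilobase and 1d-SHAM + 3 without either prefix. The steps were tested on simulated data.

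The members and lists were chosen with earlier results of these data known. All members are named, with the 3 genes of smallest p per list, comparison and direction, all of a count of 5 or fewer, and the 5 genes most like Osmr and Socs3 (mean CPM of at least 5). The values of 1 list gene are not reported here. No 2 libraries agreed within counting noise (chi-square per gene at least 13.4).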

Additional observations from a re-analysis of the deposited data

Results flagged for a closer look

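In 5 of 38 groups of 4 libraries, 1 library stood apart by Dixon's criterion for the gap over the range. Chance gives about 1 in 20 for normally distributed values. The Osm and Il11 flags are in groups with libraries at 0, for which that rate does not hold. Whether the number of flags is an excess therefore cannot be judged. Osm was 0.592 CPM in 1d-SHAM + 3 replicate 2 and 0.0512 CPM in 7d-SHAM + 3 replicate 3, the single library of that group with a count. Il11 was 0.381 CPM in 1d-SHAM + 3 replicate 2 and 0.232 CPM in 7d-MI + 3 replicate 2. Lifr was 49.4 CPM in 7d-MI + 3 replicate 3, against 25.0 to 27.4 CPM in the other 3 libraries of 7d-MI + 3.

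The MI effect at 3 days differed between the day 7 and day 1 operations, by a test of the difference itself, for Osmr (1.71 on the log2 scale), Il6st (0.97) and Il6 (edgeR adjusted p = 0.028). Osmr and Il6st passed in 27 of 27 alternatives and Il6 in 19 of 27. The effect at 21 days was lower than at 3 days for Lif (-2.95), Osmr (-1.85) and Il6 (edgeR adjusted p = 0.0014) after the day 7 operation, and for Il6 (-4.79) after the day 1 operation. After the day 7 operation, Lif passed in 26 of 36 alternatives, Osmr in 36 of 36 and Il6 in 35 of 35. After the day 1 operation, Il6 passed in 27 of 35.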

How the results depend on the processing

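The count of members called in 7d-MI + 3 against 7d-SHAM + 3 (8) was 7 to 9 with 1 library left out. In 1d-MI + 3 against 1d-SHAM + 3 (3) it was 5 without a filter, 5 in DESeq2, 1 with the prefix as a block, 1 with the compared groups alone, 6 with only 1d-SHAM + 3 replicates 3 and 4, and 3 to 5 with 1 library left out. In 7d-SHAM + 3 against 1d-SHAM + 3 (3) it was 6 without a filter, 5 in DESeq2, 7 with only 1d-SHAM + 3 replicates 1 and 2, 1 with only replicates 3 and 4, and 3 to 6 with 1 library left out. At 21 days DESeq2 called 1 member in 7d-MI + 21 against 7d-SHAM + 21, and leaving out 1 library gave 0 to 2 there and 0 to 1 in 1d-MI + 21. For the difference between follow-ups, RLE, upper-quartile scaling and DESeq2 gave 5, 5 and 6 after the day 7 operation (3; 2 to 6 with 1 library left out) and 2, 2 and 2 after the day 1 operation (1; 0 to 2). Signs turned for Il6st in 1d-MI + 3 (0.02) and the Stat3 difference between ages (-0.09) under upper-quartile scaling, and for the Socs3 difference between ages (-0.21) with only 1d-SHAM + 3 replicates 1 and 2. The causes were not tested. Apart from left-out libraries, alternatives lost 16 and gained 26 calls of the members' reported log2 changes and left 489 as they were. Over all genes, the 1722 calls in 1d-MI + 3 became 161 with the compared groups alone, 258 with the prefix block, 428 with only 1d-SHAM + 3 replicates 1 and 2 and 5599 with only replicates 3 and 4. The 4125 between shams became 1213 with the prefix block, 7406 with only 1d-SHAM + 3 replicates 1 and 2 and 1510 with only replicates 3 and 4. The 6910 in 7d-MI + 3 became 4497 with the prefix block. At 21 days, 0, 4 and 8 (7d-MI, 1d-MI, and both MI groups compared) became 383, 154 and 102 without a filter, 0, 600 and 76 with the compared groups alone, and 46, 4 and 9 with the replicate block. In 1d-MI + 3 no filter gave 2981 and DESeq2 2789. The 2662 for the difference between ages at 3 days became 849 with the prefix block. For the follow-up differences, 1320 at day 7 and 2044 at day 1 ranged over 725 to 3304 and 1040 to 3404. Scaling alternatives shifted the median of all genes by -0.34 to 0.15 within a follow-up and -0.64 to 0.16 between them. With the replicate number as a block at 21 days, 0 members were called. Same-numbered libraries correlated over 0.1 in 8 of 15 pairs. Their correlations ran from -0.26 to 0.53 and those of other pairs from -0.48 to 0.48, so whether the numbers pair libraries was not settled.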
